A study of Danio rerio with 48 samples.

Results

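The genes described here encode the proteasome, the protease that degrades ubiquitin-tagged proteins. They were chosen as the Ensembl gene IDs whose symbol starts with psma, psmb, psmc, psmd, psme, psmf or psmg followed by a digit, and whose mean level over the 33 RNA-Seq libraries was at least 1 CPM, the count of a gene scaled to a common total in each library. Here that total was the sum of counts in the library. All other CPM values below are also scaled by TMM factors, which correct for differences in RNA composition. Of 34707 gene IDs in the tables, 58 matched the symbol rule and 52 also reached the minimum, which 20437 IDs reached in all. The 6 genes below it were *psmb8*, *psmb9*, *psmb12*, *psmb13a*, *psmb11b* and *psmc3ip*. Their values are given where they bear on the others. At the limit, *psmb8* had a mean of 0.961 CPM and the lowest gene inside was *psma6l*, with 3.28 CPM. The symbol rule also takes in *psmc3ip* and *psme3ip1*, which encode proteins that bind a proteasome subunit or a relative and are not subunits themselves. Where a symbol belongs to more than 1 ID, the last 5 digits of the ID follow the symbol.

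The study compared zebrafish larvae homozygous for a mutation in 1 of 7 genes of the SMN complex, which assembles the ribonucleoproteins of the spliceosome, after loss of their lateral-line hair cells. All larvae were of the TAB-5 background, came from 1 heterozygous pair (read here as 1 pair for each mutation), were exposed to 10 µM copper sulfate for 2 h at 5 days post-fertilization (dpf), which ablates hair cells, and were collected at 7 dpf as pooled whole bodies. The homozygous groups were *smn1* (allele fh229), *gemin2* (hg108), *gemin3* (hg105), *gemin4* (hg109), *gemin5* (hg80), *gemin6* (hg110) and *gemin7* (hg111), with 3 libraries each. The *smn1*, *gemin3* and *gemin5* mutants, called regeneration mutants in the study, were each set against 3 libraries of wild-type larvae from their family. The non-regeneration mutants (*gemin2*, *gemin4*, *gemin6* and *gemin7*) shared 3 wild-type libraries, 1 each from the *gemin4*, *gemin6* and *gemin7* families, so *gemin2* mutants had no sibling library and these 4 comparisons are not independent of each other. No source says that the 3 libraries of a group stem from different clutches, and p-values therefore measure only the spread between these libraries.

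Total counts in the tables ran from 30045993 to 88871247 per library, with a median of 36496510. The 6 libraries of the *gemin3* family were deeper (61452820 to 88871247) and were read on another instrument with 150-base in place of 125-base reads, so what is particular to that family and what comes from its sequencing cannot be told apart. The mutated gene itself stood at 49.7% of its control in *gemin3* mutants (listed as *ddx20*), 59.1% in *gemin5*, 28.6% in *gemin2* and 62.8% in *gemin7* mutants, with every mutant library below every control library. In *smn1*, *gemin4* and *gemin6* mutants it was at 99.3%, 97.4% and 95.3%, so its level does not check those labels. Of 15 IDs that mark larval tissues and 9 that mark hair cells, none was at 0 in all libraries. In whole larvae, fewer cells of a type and less RNA per cell cannot be told apart.

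The proteasome has a barrel-shaped core particle (20S) of outer alpha and inner beta rings, with the proteolytic sites on some of the beta subunits. A regulatory particle (19S) caps the barrel, binds and removes ubiquitin chains, and unfolds the substrate with a ring of ATPases. Core and cap together form the 26S proteasome. Other caps can take the place of the 19S particle: the PA28 complexes, encoded by *psme1*, *psme2* and *psme3*, and PA200, encoded by *psme4*. In immune cells and under interferon, the inducible beta subunits encoded by *psmb8*, *psmb9* and *psmb10* replace the constitutive catalytic subunits to form the immunoproteasome, which favours peptides for antigen presentation.

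Levels between genes were compared as TPM, the abundance of transcripts corrected for their length and scaled to the same total in each library. The 38 genes of the constitutive core and cap had a median of 71.8 TPM, each gene being averaged over the 33 libraries. The beta ring was highest, with a median of 122 TPM over 7 genes, followed by the alpha ring (89.3 TPM, 10 genes), the ATPase ring (69.7 TPM, 7 genes) and the non-ATPase subunits of the cap (48.5 TPM, 14 genes). In the beta ring, *psmb7*, which carries the trypsin-like site, was the highest of all members, at 190 TPM (133 to 276 over the libraries). The other catalytic subunits were the lowest of the ring: *psmb5*, with the chymotrypsin-like site, at 66.1 TPM and *psmb6*, with the caspase-like site, at 49.5 TPM. In the alpha ring, *psma8* was highest, at 151 TPM. In mammals this symbol belongs to an alpha subunit of the testis, whereas here the gene was abundant in whole larvae and no listed ID carried the symbol *psma7*. In the ATPase ring the extremes were *psmc5*, at 91.7 TPM, and *psmc1*, at 30.3 TPM. Among the non-ATPase subunits they were *psmd13*, at 111 TPM, and *psmd11*-60150, at 25.5 TPM.

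**Figure D1:**
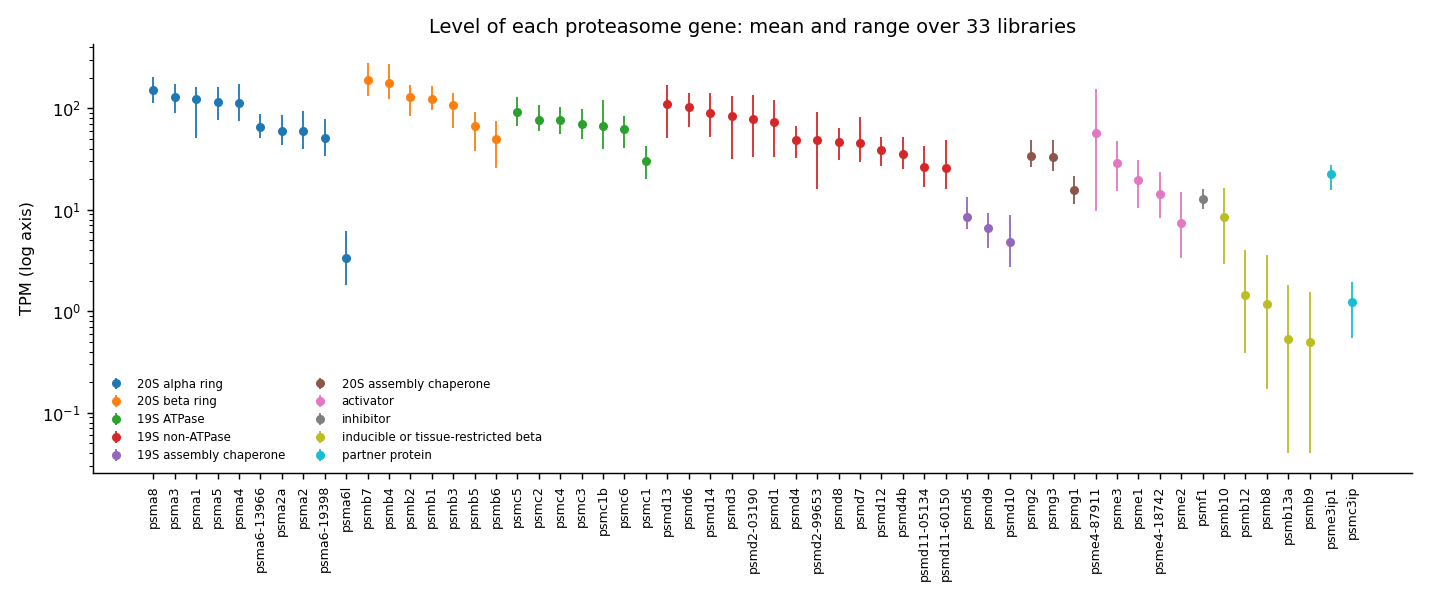
Mean TPM of each proteasome gene over 33 libraries (points, log axis), with bars from the lowest to the highest library, grouped by role; genes listed at 0 in any library are left out. Apart from *psma6l*, at 3.34 TPM, the constitutive subunits lie between 25.5 and 190 TPM, the chaperones of the cap between 4.86 and 8.49 TPM, and the inducible *psmb10* among these, at 8.41 TPM.

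Several subunits are encoded by more than 1 ID. The symbols *psma2* and *psma2a* divided their subunit almost evenly, at 59.7 and 59.8 TPM, and summed to 120 TPM. Both *psma6* IDs, at 65.9 and 51.4 TPM, summed with *psma6l* to 121 TPM, of which *psma6l* made up only 3.34 TPM. The *psmc1* pair summed to 96.5 TPM. Summed in this way, the duplicated alpha subunits came to the level of the single-copy genes *psma1* (122 TPM), *psma5* (114 TPM) and *psma4* (113 TPM). The *psmd11* pair summed to 51.7 TPM and the *psmd4* pair to 83.8 TPM. For IDs that share a symbol, such as those of *psmd2*, it is not known whether they are separate genes or parts of 1. The mean transcript lengths of the *psmd2* IDs were 1044 and 1542 bases. Counts of near-identical copies can be divided between them by the estimation, and among the members *psma2a* in 31 libraries, *psmd4* in 7 and *psmd1* in 2 had expected counts further than 0.05 from a whole number.

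The helpers of assembly were less abundant. The chaperones of the cap, *psmd5*, *psmd9* and *psmd10*, which release the ATPases once the base is built, lay between 4.86 and 8.49 TPM. The chaperones of the core, *psmg1*, *psmg2* and *psmg3*, lay between 15.7 and 34.0 TPM. *psmf1*, which encodes the inhibitor PI31, was at 12.9 TPM. Among the alternative caps, *psme3*, encoding the nuclear PA28 gamma, was at 29.0 TPM, *psme1* and *psme2*, encoding PA28 alpha and beta, at 19.8 and 7.40 TPM, and the PA200 genes *psme4*-87911 and *psme4*-18742 at 56.5 and 14.4 TPM. Of the inducible beta genes, *psmb10* was at 8.41 TPM, within the range of the cap chaperones, and the others were lower: *psmb12* was at 1.46, *psmb8* 1.17, *psmb13a* 0.528 and *psmb9* 0.501 TPM. *psmb11b*, whose mammalian relative is the beta subunit of thymic epithelium, was at 0.00788 TPM. In the RefSeq annotation of assembly GRCz12tu, *psmb13a*, *psmb8a*, *psmb12* and *psmb9a* follow each other without another coding gene between them, and *psmb8a* overlaps both of its neighbours. Whether the counting used strand is not stated, so reads of these overlapping genes may not be separable.

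The constitutive subunits varied together from library to library. Counts of these genes in 1 direction, given below, are therefore not counts of independent observations. Levels were taken as log2(CPM + 1) minus the mean of the group, so that differences between groups do not enter, and each gene was correlated with the median of the other constitutive genes over the 33 libraries, which share their depth and base composition across genes. Within groups the SD of log2(CPM + 1) had a median of 0.13 over the 38 genes, and of 0.17 over all 24535 genes tested. The summed CPM of the 38 genes spread most within *gemin2* mutants, at 1994, 1965 and 2611 CPM (SD 365). The correlations include the third of these libraries and were not computed without it. Pearson's r had a median of 0.77 over the 38 genes, and 33 of them (86.8%) were above 0.5. Over the 24478 other genes tested, the median r was 0.00 and 4.52% were above 0.5. The highest were the deubiquitinase subunit gene *psmd14* (r = 0.94), *psmc4* (0.91) and *psmd6* (0.90). The lowest were *psmd2*-03190 (0.24), *psmd2*-99653 (0.36) and *psmd1* (0.36), which encode the large scaffold subunits, then *psmb5* (0.47) and *psma6l* (0.49). Both *psmd2* IDs, which may be parts of 1 gene, followed each other (r = 0.83) more closely than they followed the other subunits. Of the helpers, *psmd5* (0.74) and *psmg2* (0.71) moved with the subunits, whereas *psmd9* and *psmg3* were near 0 (both 0.02). The alternative caps had lower values: r was 0.37 for *psme3*, 0.26 for *psme1*, 0.23 for *psme2*, 0.15 for *psme4*-18742 and -0.11 for *psme4*-87911. *psme1* and *psme2* followed each other (r = 0.79), as did *psmb8* and *psmb9* (0.78).

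The summed level of the 38 constitutive genes differed between families of wild-type larvae. In siblings of *smn1* mutants the sums were 3042, 2922 and 3321 CPM, in siblings of *gemin5* mutants 2685, 2399 and 2603 CPM, in siblings of *gemin3* mutants 2494, 2393 and 2331 CPM, and in the shared wild type 2098, 2340 and 2085 CPM. The wild-type libraries of the *smn1* family thus lay above all other wild-type libraries.

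**Figure D2:**
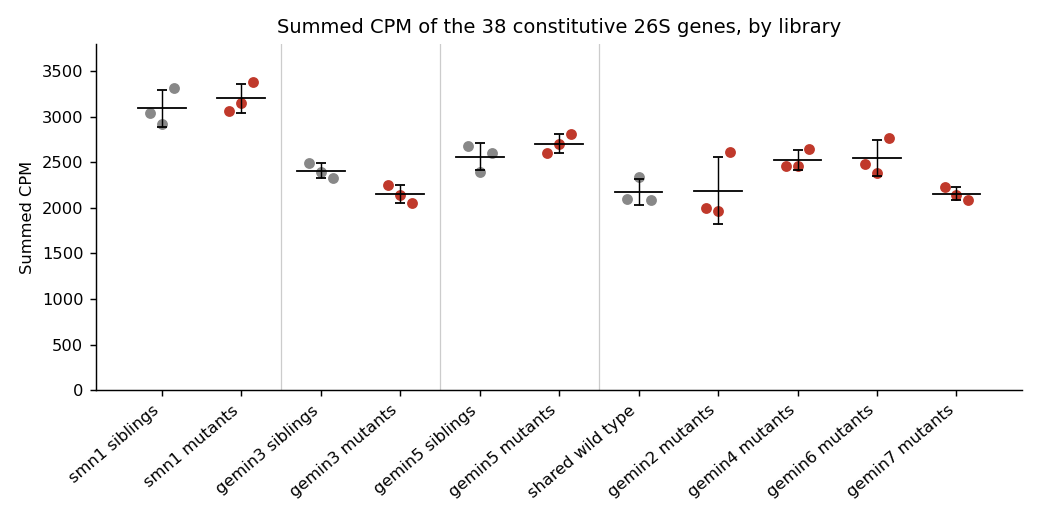
Summed CPM of the 38 constitutive core and cap genes in each of 33 libraries (grey, wild type; red, mutants; black bars, mean and SD of 3), with lines between families. The *smn1* family lies highest, at 2922 CPM and above, and the third *gemin2* library lies at 2611 CPM, above the other 2.

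Between wild-type larvae of the *smn1* and *gemin5* families, which carry neither mutation and were read with the same read length, the quasi-likelihood test of edgeR, with p-values adjusted by the Benjamini-Hochberg method, called 1 member, where 1.41% of 22727 genes were called. This was *psmd11*-60150, a non-ATPase subunit of the cap, 1.52-fold higher in the *smn1* family (log2 fold change 0.60 ± 0.11 SE, adjusted p = 0.0477). DESeq2 called 11 members, where 6.35% of 28516 genes were called. With the replicate numbers as a block, which in these families share only a number, edgeR called 3 members, *psmd11*-05134, *psmd7* and *psme4*-87911, where 3.2% of genes were called, and *psmd11*-60150 was not among them. At an unadjusted p below 0.05, 28 of the 52 were higher in the *smn1* family and 0 lower, against 10.2% of all genes higher and 11.6% lower. By role, these were 11 of 14 non-ATPase subunits, 5 of 7 ATPases, 5 of 7 beta and 4 of 10 alpha subunits. The median log2 fold change was 0.24 over the members and 0.00 over all genes. *psme1* pointed the other way, at -0.34 (adjusted p = 0.257). Without 1 library the number called ran from 0 to 5: it was 0 without *smn1* sibling 1 or 3 or *gemin5* sibling 1 or 2, 2 without *smn1* sibling 2 and 5 without *gemin5* sibling 3. The share of all genes called was 0.0303% to 0.248% in the fits with 0 members called, and 2.81% and 7.37% in those with 2 and 5. The 28 members higher at an unadjusted p below 0.05 became 17 without *gemin5* sibling 2, against 6.06% of all genes.

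Against their controls, 0 of the 52 genes passed the adjusted threshold in any of the 7 mutants by edgeR, fitted without pairing. The share of all genes called was 0.0921% in *smn1*, 0.978% in *gemin3*, 0.907% in *gemin5*, 5.39% in *gemin2*, 0.0173% in *gemin4* and 0% in *gemin6* and *gemin7* mutants. DESeq2 called 2 members in *gemin3* and 1 in *gemin2* mutants, where it called 2.51% and 7.27% of all genes. It called 0 members in *smn1*, *gemin5*, *gemin4*, *gemin6* and *gemin7* mutants, where it called 0.626%, 2.04%, 0.334%, 0.0764% and 0.205% of all genes. With all 33 libraries in 1 fit, edgeR called 1 member in *gemin3*, 1 in *gemin5* and 4 in *gemin2* mutants, against 0.933%, 1.08% and 11% of all genes. With the replicate numbers as a block, edgeR called 2 members in *gemin5* mutants, against 7.52% of all genes. It called 0 in *smn1* and *gemin3* mutants, where 193 of 22797 and 252 of 24229 genes were called higher and 157 and 228 lower. Most fold changes were small: apart from *psmb10*, *psme1*, *psme2* and *psme4*-87911, no member exceeded 0.5 on the log2 scale in any mutant. The median SE of a member lay between 0.08 and 0.15 on that scale, and the intervals of single genes are given below, since a missing call does not show that a level was the same.

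Groups that did not overlap were counted as well, over CPM values. In *gemin3* mutants 16 of the 52 members had all mutant libraries below all sibling libraries and 2 had them above, where the same held for 8.67% and 10.3% of the 24535 genes. The 16 were all constitutive, and the 2 were *psme1* and *psme2*. In *gemin4* mutants 22 members lay above and 0 below (5.86% and 5.55% of all genes), and in *gemin6* mutants 15 above and 0 below (4.51% and 4.17%). In *gemin5* mutants 7 lay above and 0 below (8.93% and 8.71%), and in *smn1* mutants 3 above and 0 below (5.34% and 6.51%), so that the members' share above was near that of all genes. In *gemin2* mutants 6 lay above and 4 below (13.9% and 13.4%), and in *gemin7* mutants 3 above and 1 below (6.22% and 7.35%).

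**Figure D3:**
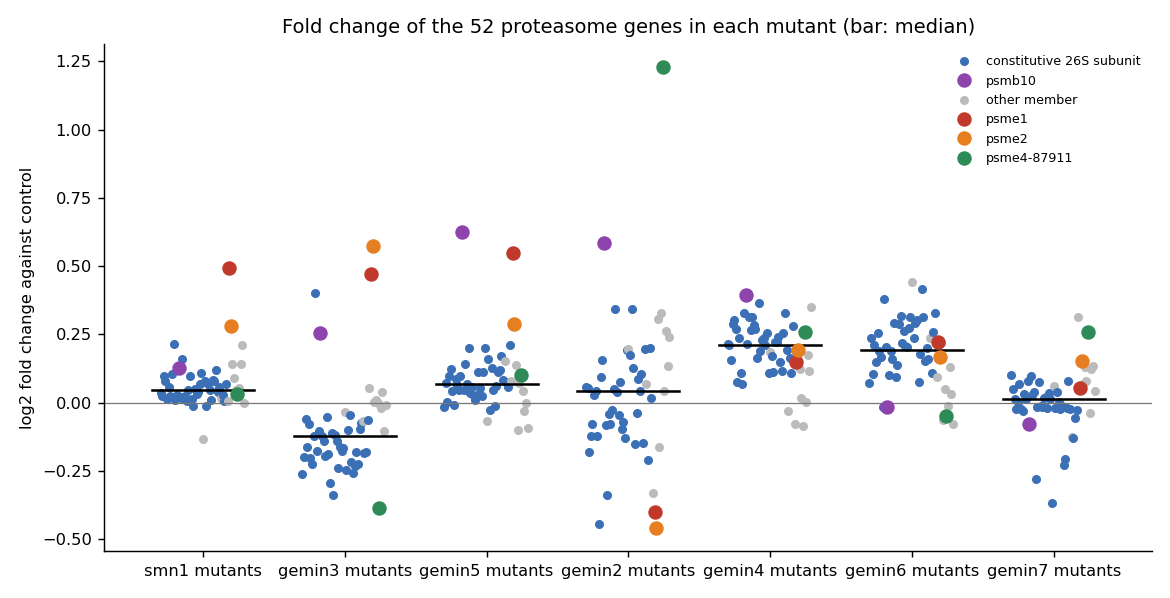
Log2 fold change of the 52 genes against the control of each mutant (edgeR), with the median as a bar. Constitutive subunits (blue) lie below 0 in *gemin3* mutants, with the exception of *psma6l*, and above 0 in *gemin4* mutants; *psme1* and *psme2* stand above them in *smn1*, *gemin3* and *gemin5* mutants. In *gemin2* mutants both lie below all of them but *psma6l*, which lies between the 2.

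In *gemin3* mutants the constitutive subunits were lower than in siblings. Their sum was 2250, 2146 and 2053 CPM in mutants against 2494, 2393 and 2331 CPM in siblings, 89.3% ± 4.09 of the siblings' mean (SD, n = 3), and the groups did not overlap. By part, the ATPases and the non-ATPase subunits of the cap did not overlap either, but the core particle did. Its sum was 980, 938 and 878 CPM in mutants against 1078, 1071 and 975 CPM in siblings. Summed TPM of all members also overlapped, at 2976, 2815 and 2785 in mutants against 3155, 3016 and 2891 in siblings. Of the 38 genes, 37 had a negative fold change, and the median was -0.17. Over all genes, 48.8% of fold changes were positive. As the 38 genes varied together between libraries, the 37 are not independent of each other. At an unadjusted p below 0.05, 14 of the 52 members were lower, all of them constitutive, and 3 were higher, where 5.56% of all genes were lower and 5.8% higher. The lowest of them was *psmc1b*, an ATPase of the cap, with 58.0, 54.2 and 51.8 CPM against 73.7, 63.0 and 69.5 CPM (-0.34 ± 0.08 SE, adjusted p = 0.165). The catalytic *psmb7* followed at -0.30 ± 0.09 (adjusted p = 0.24), and *psmd14* at -0.26 ± 0.08 (adjusted p = 0.24). *psmb5* differed by only -0.05, with an interval from -0.22 to 0.11. *psma6l* went against the rest, at 6.34, 5.43 and 5.95 CPM in mutants against 3.67, 5.47 and 4.16 CPM in siblings (0.40 ± 0.16, adjusted p = 0.4). DESeq2 called *psmc1b* (adjusted p = 0.041) and *psme1* (adjusted p = 0.00969). Without sibling 3, edgeR called 2 members, where it called 2.49% of all genes. The count of 14 lower members rested on single libraries: it was 4 without mutant 3, 5 without mutant 2 or sibling 1, and 18 without sibling 3, against 4.11%, 3.06%, 5.05% and 7.72% of all genes. It was 20 with the replicate block, against 2005 of 24229 genes, and 6 with all 33 libraries in 1 fit, against 969 of 24535 genes.

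In *gemin4* and *gemin6* mutants the constitutive subunits were higher than in the wild type that both share. The sums were 2459, 2460 and 2650 CPM in *gemin4* mutants, 116% ± 5.07 of the control mean, and 2485, 2383 and 2765 CPM in *gemin6* mutants, 117% ± 9.09, against control libraries between 95.9% and 108% of their own mean. Neither group of mutants overlapped with the control in these scaled values. The third *gemin4* library, the highest of its group, had the lowest TMM factor of all libraries, 0.879. Summed TPM of all members, which carries no TMM factor, was 3234, 3059 and 2804 in *gemin4* mutants, where the third library was lowest. It was 3149, 3304 and 4050 in *gemin6* mutants. The control had 2753, 3172 and 2651, so both groups overlapped with it by TPM. Fold changes were above 0 for 38 of 38 genes in *gemin4* mutants, with a median of 0.22, and for 37 of 38 in *gemin6* mutants, with a median of 0.21. Over all genes, 50.1% and 49.95% were above 0. Here too the 38 genes are not independent of each other. At an unadjusted p below 0.05, 14 members were higher and 0 lower in *gemin4* mutants, where 3% of all genes were higher and 2.68% lower. In *gemin6* mutants 8 were higher and 0 lower, where 1.81% of all genes were higher and 1.88% lower. Both counts moved with single libraries. In *gemin4* mutants 2 were higher without shared wild-type library 3, 3 without mutant 3, and 5 without mutant 2 or shared wild-type library 1, against 2.62%, 1.81%, 1.85% and 4.49% of all genes. In *gemin6* mutants 1 was higher without shared wild-type library 1, 2 without mutant 3, 3 without shared wild-type library 3, 5 without mutant 2 and 13 without shared wild-type library 2, against 1.18%, 1.58%, 1.33%, 1.61% and 4.15% of all genes. With all 33 libraries in 1 fit the counts were 20 and 21, against 867 and 800 of 24535 genes. In *gemin4* mutants *psmc1b* was the highest constitutive gene, at 63.4, 61.0 and 67.9 CPM against 48.4, 53.7 and 47.9 CPM (0.37 ± 0.11, adjusted p = 0.713). The catalytic subunits were at 0.31 (*psmb5*), 0.28 (*psmb6*) and 0.27 (*psmb7*), with adjusted p-values between 0.861 and 0.867. In *gemin6* mutants the highest were the cap chaperone gene *psmd10* (0.44 ± 0.18) and *psmd2*-03190 (0.41 ± 0.13, both adjusted p = 0.991). Against the only wild-type library from their own family, the sums were 120% in *gemin4* and 109% in *gemin6* mutants. For *gemin6* this library had 2340 CPM, close to the lowest mutant library at 2383 CPM. In the sum of the non-ATPase subunits of the cap it was above that mutant library, at 865 against 855 CPM. Since the other control libraries came from other families, a difference between families and an effect of the mutation cannot be told apart.

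The *gemin2* mutants were not alike. Their constitutive sums were 1994, 1965 and 2611 CPM, so that in these scaled values libraries 1 and 2 lay below and library 3 above all 3 control libraries. Library 3 had a TMM factor of 0.913. Summed TPM of all members, which carries no TMM factor, was 2536, 2428 and 2891, against 2753, 3172 and 2651 in the control. By TPM, libraries 1 and 2 again lay below the control, but library 3 lay within its range. With all libraries, the median over the members was 0.04, and 4 members were higher and 4 lower at an unadjusted p below 0.05, where 9.85% of all genes were higher and 11% lower. Without library 3, the median was -0.12, and 3 were higher and 14 lower, against 9.51% and 12% of all genes. Furthest from 0 were *psme4*-87911, *psmb10* and *psme2*, whose values follow with those of *psme1*, and the alpha gene *psma6l*, with 2.48, 2.37 and 3.11 CPM against 3.18, 3.59 and 4.04 CPM (-0.44 ± 0.19, adjusted p = 0.228) and no overlap.

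In *gemin7*, *smn1* and *gemin5* mutants the constitutive sums in CPM overlapped with those of the controls, at 99.1% ± 3.25, 103% ± 5.23 and 106% ± 4.07 (SD, n = 3). Each *smn1* mutant library, at 3069, 3155 and 3383 CPM, was above its same-numbered sibling, at 3042, 2922 and 3321 CPM. The *gemin5* mutants had 2607, 2698 and 2815 CPM against 2685, 2399 and 2603 CPM, with the first below its sibling. Summed TPM of all members, which carries no TMM factor, gave another order. In *gemin5* mutants it was 3468, 3806 and 3932 against 3421, 3304 and 3456 in siblings, without overlap. In *smn1* mutants it was 4199, 4572 and 4269 against 4293, 4087 and 4560, with mutants 1 and 3 below their siblings. In *gemin7* mutants it overlapped with the control, at 2778, 2741 and 2799.5 against 2753, 3172 and 2651. In *gemin7* mutants 19 of the 38 genes were above 0 and 19 below, and *psmd1*, a scaffold of the cap, was the only member with an unadjusted p below 0.05. It had 113, 103 and 88.6 CPM against 127, 152 and 112 CPM (-0.37 ± 0.14, adjusted p = 0.583), and its groups did not quite separate. Over all genes, 5.66% were lower and 2.57% higher at that threshold. In *smn1* mutants 36 of 38 genes were above 0, against 52.4% of all genes, but by little, with a median of 0.04. Over all 52 members 48 were above 0, but only 27 without mutant 3, 35 without sibling 2 and 37 without sibling 1. In the fit with all libraries 0 of the constitutive genes had an unadjusted p below 0.05. Of all members 1 was higher and 0 lower at that threshold, against 2.67% and 3.26% of all genes. In *gemin5* mutants 34 of 38 were above 0, against 50.4% of all genes, with a median of 0.07. Here 4 members were higher and 0 lower at that threshold, against 6.41% and 5.2% of all genes. Without 1 library, 1 to 8 were higher. It was 8 without sibling 1 (1250 of 23008 genes), and 1 without sibling 2 (1126 of 23003) or mutant 2 (1031 of 22987). It was 2 without sibling 3 (1554 of 22853) or mutant 3 (1571 of 22815). The 4 higher members with no library left out were *psme1*, *psmb10*, the catalytic *psmb5* (0.20 ± 0.07, adjusted p = 0.341) and *psmd1* (0.20 ± 0.07, adjusted p = 0.342).

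The members with a fold change beyond 0.5 on the log2 scale in at least 1 mutant all belonged to the alternative caps or the inducible beta subunits. *psme1* encodes the alpha subunit of the PA28 cap, which interferon induces together with the immunoproteasome. In *smn1* mutants it had 10.2, 11.7 and 8.38 CPM, against 7.02, 6.92 and 7.54 CPM in siblings. In *gemin3* mutants it had 23.2, 21.7 and 21.9 CPM, against 16.2, 17.9 and 13.8 CPM. In *gemin5* mutants it had 12.5, 13.7 and 13.6 CPM, against 11.3, 7.86 and 8.15 CPM. Mutants and siblings did not overlap in any of the 3 families. The log2 fold changes were 0.49 ± 0.15, 0.47 ± 0.11 and 0.55 ± 0.15, with adjusted p-values of 0.617, 0.121 and 0.183. The replicate numbers of the labels were taken as pairs of mutants and siblings in these 3 families, from correlations in these same data. With them as a block, *psme1* passed in *gemin5* mutants (0.56, adjusted p = 0.0296), together with *psmb10* (0.65, adjusted p = 0.0275). The adjusted p-values of *psme1* were 0.057 in *gemin3* and 0.109 in *smn1* mutants. The block raised the share of all genes called in *gemin5* mutants to 7.52%.

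In the non-regeneration mutants the values of *psme1* lay on both sides of the control. Its 3 shared control libraries had 13.9, 12.97 and 13.9 CPM. In *gemin2* mutants it was lower, at 9.95, 10.05 and 10.9 CPM (-0.40 ± 0.12, adjusted p = 0.1), with no overlap. In *gemin4* mutants it had 14.3, 14.7 and 16.0 CPM, and in *gemin6* mutants 16.3, 16.2 and 15.4 CPM, both without overlap and with fold changes of 0.15 and 0.22. In *gemin7* mutants it had 15.1, 13.3 and 14.1 CPM (0.05 ± 0.11), overlapping with the control.

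*psme2*, which encodes the partner subunit of the same cap, was at 0.28, 0.57 and 0.29 on the log2 scale in *smn1*, *gemin3* and *gemin5* mutants and at -0.46 in *gemin2* mutants. In *gemin3* mutants it had 18.6, 17.0 and 16.8 CPM, against 11.5, 14.8 and 8.70 CPM in siblings (adjusted p = 0.257), with no overlap. In *gemin2* mutants it had 5.88, 7.52 and 7.45 CPM, against 8.82, 8.30 and 11.5 CPM (adjusted p = 0.193), again with no overlap. In *gemin4*, *gemin6* and *gemin7* mutants it lay between 0.15 and 0.19. *psme3*, the gene of the nuclear relative, was within 0.14 of 0 in the 3 regeneration mutants and at 0.31 ± 0.15 in *gemin2* mutants (adjusted p = 0.277).

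**Figure D4:**
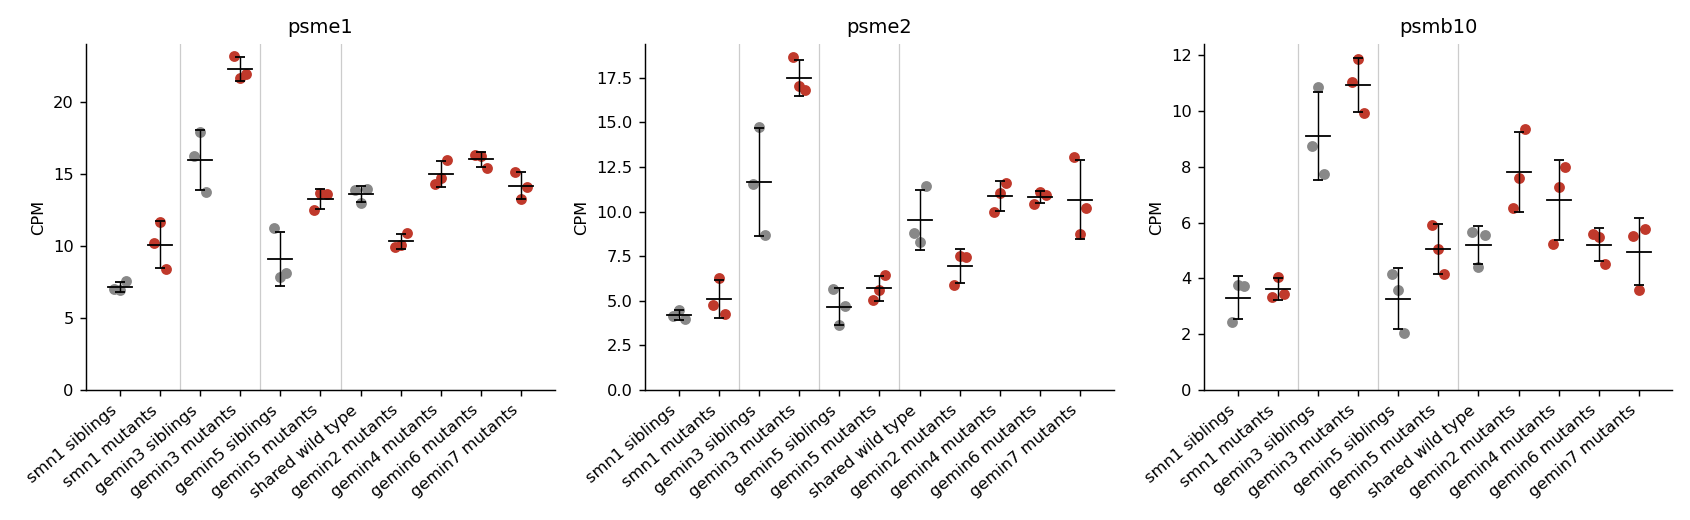
CPM of *psme1*, *psme2* and *psmb10* in each library (grey, wild type; red, mutants; black bars, mean and SD of 3). The *psme1* levels of *smn1*, *gemin3* and *gemin5* mutants lie above those of their siblings, those of *gemin2* mutants lie below the shared wild type, and among wild-type groups the mean of each gene is highest in siblings of *gemin3* mutants.

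The study set the 3 regeneration mutants against the 4 non-regeneration mutants, and the same question was put to the proteasome genes as the difference between the mean log2 fold changes of both sets, fitted to all 33 libraries. Of the 52 genes, 1 passed, where 0.538% of 24535 genes were called. It was *psme1*, with a difference of 0.50 ± 0.11 (interval from 0.26 to 0.73, adjusted p = 0.0424). DESeq2 also called *psme1* alone among the members, where 0.752% of genes were called (adjusted p = 0.00613). With the replicate block it was again *psme1* (adjusted p = 0.0412), where 1.05% of genes were called. The call rests on the *gemin2* mutants, whose family has no sibling library: without them the difference was 0.35 and the adjusted p 0.514. Without the *gemin3* family it was 0.51 with an adjusted p of 0.0969, and without replicate number 1, 2 or 3 in all groups the difference was 0.54, 0.47 and 0.49, with adjusted p-values of 0.272, 0.83 and 0.119. *psme2* had a difference of 0.37 ± 0.18 (adjusted p = 0.613). The fold changes of the constitutive genes were slightly lower in regeneration than in non-regeneration mutants. Of the 3 regeneration mutants, only *gemin3* mutants had a median below 0 over these genes (-0.17). It was 0.04 in *smn1* and 0.07 in *gemin5* mutants. Where 51.4% of all genes were above 0, 36 of these 38 were below 0, with a median of -0.13. None of them had an unadjusted p below 0.05, where 3.04% of all genes were lower and 4.98% higher at that threshold. Without *gemin2* mutants 12 of them were lower and 0 higher, where 2.34% of all genes were lower and 2.85% higher. Without the *gemin3* family the median over all 52 members was -0.04. At that threshold 1 member was then higher and 0 lower, against 1016 and 550 of 24295 genes.

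Markers of immune cells also differed in some of these mutants. The summed level of 10 IDs that mark the thymus and T cells was 6.06 to 9.31 CPM in *smn1* mutants against 14.0 to 26.9 CPM in siblings, 11.7 to 19.5 against 31.6 to 49.4 CPM in *gemin3*, 8.37 to 12.4 against 22.7 to 26.1 CPM in *gemin5*, and 10.3 to 14.1 and 12.9 to 18.5 CPM in *gemin2* and *gemin4* mutants against 33.6 to 40.2 CPM in the shared wild type. In *gemin6* and *gemin7* mutants, with the same control, it was 26.4 to 32.3 and 27.1 to 34.6 CPM. None of the 10 was at 0 in all libraries. Of those tested, 6 of 9 fell in *gemin2*, 4 of 9 in *gemin3*, 3 of 8 in *gemin5* and 1 of 9 in *gemin4* mutants, and 0 of 6 in *smn1* and 0 of 9 in *gemin6* and *gemin7* mutants. Over all genes, 721 of 23153 fell in *gemin2*, 99 of 24229 in *gemin3*, 71 of 22601 in *gemin5* and 1 of 23065 in *gemin4* mutants. In *smn1* mutants 4 of 22797 fell, and in *gemin6* and *gemin7* mutants 0. The recombinase gene *rag1* fell in *gemin2*, *gemin3*, *gemin4* and *gemin5* mutants (log2 fold changes from -2.70 to -2.18). In *smn1* mutants *rag1* had 2.01, 1.65 and 0.887 CPM against 6.08, 10.98 and 7.40 CPM in siblings, with no overlap and a fold change of -2.42 that did not pass (adjusted p = 0.0895). The 13 IDs of the interferon response summed to 152 to 195 CPM in *smn1* mutants against 127 to 165 CPM, to 287 to 308 against 245 to 350 CPM in *gemin3*, and to 146 to 181 against 138 to 145 CPM in *gemin5* mutants, where *irf9*, a transcription factor of this response, was called higher (0.62 ± 0.11, adjusted p = 0.0486). In *gemin2* mutants *isg15* (-2.05) was called lower, although the sum, at 205 to 235 CPM, overlapped with the control, at 207 to 246 CPM. The sums of *gemin4*, *gemin6* and *gemin7* mutants, at 221 to 250, 175 to 332 and 236 to 251 CPM, overlapped with the same control. The part of these cells and genes in the *psme1* and *psme2* values was not tested.

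Of the inducible beta genes, *psmb10* alone reached the CPM minimum. It encodes the inducible counterpart of *psmb7*. In *gemin5* mutants it had 5.93, 5.06 and 4.15 CPM against 4.16, 3.60 and 2.05 CPM in siblings, and the groups overlapped slightly (0.63 ± 0.26, adjusted p = 0.412, or 0.0275 with the block). In *gemin2* mutants it had 6.52, 7.60 and 9.35 CPM against 5.66, 4.42 and 5.54 CPM, with no overlap (0.59 ± 0.19, adjusted p = 0.121), so that here it lay on the opposite side of the control from *psme1* and *psme2*. In *gemin4* mutants it was at 0.39 ± 0.20 (adjusted p = 0.868) and in *gemin3* mutants at 0.25 ± 0.14 (adjusted p = 0.54). In *smn1*, *gemin6* and *gemin7* mutants it was within 0.13 of 0.

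The other inducible genes, below the minimum, rest on few counts. *psmb8* had 0.245, 0.463 and 0.747 CPM in *gemin2* mutants against 0.971, 0.781 and 1.24 CPM in the shared wild type (-1.02 ± 0.40, adjusted p = 0.194). *psmb13a* had 0.184, 0.191 and 0.169 CPM there, against 0.324, 0.317 and 0.536 CPM (-1.14 ± 0.38, adjusted p = 0.133). Both were thus on the side of *psme1* and *psme2* in these mutants. *psmb12* was as well, with 0.459, 0.490 and 0.386 CPM against 0.701, 0.537 and 0.636 CPM. *psmb9* overlapped with the control, at 0.123, 0.272 and 0.506 CPM against 0.243, 0.391 and 0.452 CPM. In *smn1* and *gemin5* mutants *psmb8*, *psmb9* and *psmb13a* overlapped with the siblings. *psmb12* did so in *gemin5* mutants, but in *smn1* mutants it had 0.603, 0.508 and 0.704 CPM against 0.497, 0.433 and 0.352 CPM. In *gemin3* mutants *psmb8* was at 0.56 ± 0.24, *psmb12* at 0.56 ± 0.19, *psmb9* at 0.64 ± 0.31 and *psmb13a* at 0.47 ± 0.35, with adjusted p-values from 0.314 to 0.653. Among wild-type groups, all 5 of these inducible genes had their highest mean in siblings of *gemin3* mutants. In these siblings the mean of *psmb8* was 1.73 CPM, against 0.997 CPM in the shared wild type, 0.433 CPM in the *smn1* family and 0.391 CPM in the *gemin5* family.

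The gene with the largest differences was *psme4*-87911 (ENSDARG00000087911), which encodes PA200, a large single-chain cap that opens the core without ubiquitin or ATP and is known for histone turnover in the mammalian testis and after DNA damage. Its highest library was 13.4 times its lowest, the widest range of the 52 genes, whose median was 2.01. Siblings of *smn1* mutants had 566, 573 and 681 CPM, siblings of *gemin5* mutants 389, 376 and 549.5 CPM, the shared wild type 176, 64.9 and 148 CPM, and siblings of *gemin3* mutants 101, 60.3 and 96.9 CPM. In *gemin2* mutants it had 344, 326 and 249 CPM, above all 3 shared control libraries, a 2.34-fold difference (1.23 ± 0.33, interval from 0.48 to 1.98, adjusted p = 0.0727 by edgeR and 0.00215 by DESeq2). Since this family has no sibling library, a difference between families and an effect of the mutation cannot be told apart. Without the wild-type library of the *gemin6* family, at 64.9 CPM, edgeR called it too, at 0.90 (adjusted p = 0.0445).

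In mutants with siblings of their own, the values of *psme4*-87911 overlapped with those of the siblings. In *smn1* mutants it had 499, 555 and 807 CPM (0.03 ± 0.19), in *gemin5* mutants 376, 467 and 563 CPM (0.10 ± 0.19), and in *gemin3* mutants 70.3, 62.0 and 66.7 CPM (-0.39 ± 0.18, adjusted p = 0.481). The second ID, *psme4*-18742, had the same order of families over a smaller range. Wild-type means were 107 CPM in the *smn1*, 86.5 CPM in the *gemin5* and 57.1 CPM in the *gemin3* family, and 64.9 CPM in the shared wild type. In *gemin2* mutants it had 82.7, 83.4 and 78.9 CPM, against 60.1, 62.9 and 71.8 CPM, with no overlap (0.33 ± 0.11, adjusted p = 0.145). Over the 33 libraries log2(CPM + 1) of both IDs had a Pearson's r of 0.94, and of 0.55 within groups.

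**Figure D5:**
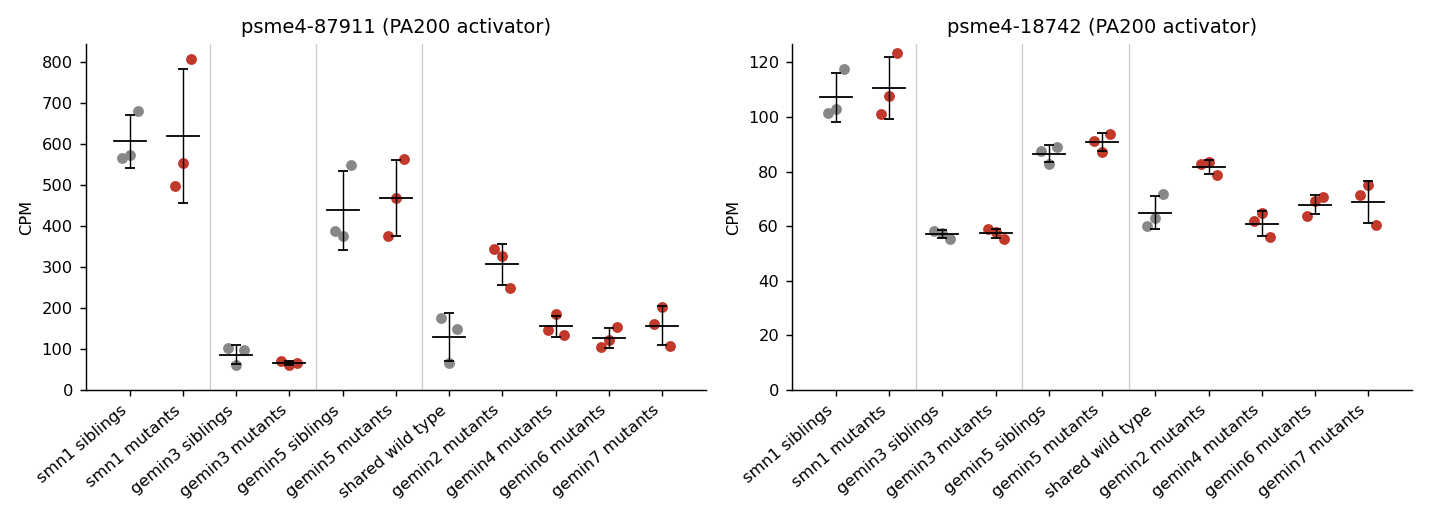
CPM of both *psme4* IDs in each library (grey, wild type; red, mutants; black bars, mean and SD of 3; the vertical scales differ). In both, the *smn1* and *gemin5* families lie above the *gemin3* family and the shared wild type, and *gemin2* mutants lie above the shared wild type.

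Other members also set families apart. *psmd2*-99653, a scaffold of the cap, had wild-type means of 81.1 CPM in the *smn1* and 63.3 CPM in the *gemin5* family, against 38.7 CPM in the shared wild type and 22.7 CPM in the *gemin3* family. *psmd3* had 134 and 130 CPM in the former families and 94.6 and 52.5 CPM in the latter. The other *psmd2* ID, *psmd2*-03190, had 76.6 CPM in the *smn1* and 62.6 CPM in the *gemin5* family. It did not share the low level of the *gemin3* family, at 53.1 CPM there against 33.3 CPM in the shared wild type. The cap chaperone gene *psmd10* went the other way, at 7.47 CPM in the *gemin3* family and between 3.09 and 3.53 CPM in the others. At the other end, *psmf1* hardly varied, with wild-type means that differed by at most 1.08-fold.

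Few of the genes that act with the proteasome were called. *pomp*, which encodes the maturation factor of the core, was not called in any mutant, with fold changes from -0.12 in *gemin2* to 0.31 in *gemin4* mutants. NFE2L1 is the factor that raises the transcription of proteasome genes when proteolysis falls short. Its genes *nfe2l1* and *nfe2l1b* were not called either. *nfe2l1* ranged from -0.34 in *gemin6* to 0.81 ± 0.27 in *gemin2* mutants (adjusted p = 0.133), and it was higher in wild-type *smn1* than *gemin5* larvae by 0.63 ± 0.12 (adjusted p = 0.0522). In *gemin2* mutants 4 of 18 IDs for ubiquitin, its activation and delivery were called higher and 0 lower. Over all 23153 genes tested there, 528 were called higher and 721 lower, the most of any mutant. They were both *ubb* IDs, which encode polyubiquitin (0.88 and 0.93), *uba6*, a ubiquitin-activating enzyme (0.94), and *hspa8*-37403 (0.70), the minor ID of the chaperone HSC70, with a mean of 7.22 CPM. The abundant *hspa8*-68992, with a mean of 7540 CPM, was not called. Higher there were also 1 of 11 regulators of the NFE2L factors, *keap1* (1.00), and 1 of 11 assembly factors and additional subunits, *zfand5a* (0.78), whose mammalian relative binds the proteasome. *sqstm1*, the autophagy receptor p62, was the only one of 12 genes of other degradation routes called, and it was lower (-0.88). Levels of both *ubb* IDs also differed between wild-type families. Wild-type means ran from 255 to 1001 CPM for *ubb*-02369 and from 269 to 1425 CPM for *ubb*-93313. The *gemin2* mutants had means of 535 and 728 CPM. As these mutants have no sibling library, a difference between families and an effect of the mutation cannot be told apart for these calls. In *gemin3* mutants, where 138 of 24229 genes were called higher, the small heat shock gene *hspb1* was the only one of 11 genes of the response to misfolded proteins called (0.91). In the other mutants none of these 5 lists had a call. None of the 17 IDs of antigen presentation was called in any mutant. Outside these lists, 1 of 9 hair cell markers, *otof*-20581, fell in *smn1* mutants (-0.96), and of 15 markers of larval tissues the exocrine *ela2l* fell in *gemin3* (-1.36), and in *gemin2* mutants the liver gene *tfa* fell (-0.67) and *rho*-70666, a minor ID of the rhodopsin symbol with a mean of 7.70 CPM, rose (1.12). The main ID, *rho*-02193, with a mean of 510.5 CPM, was not called. Over all genes, 4 of 22797 were called lower in *smn1* and 99 of 24229 in *gemin3* mutants.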

How the data were processed

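The genes, and the gene lists beside them, were chosen with earlier results of these data known, and no set of them is independent evidence. Reads were mapped by the authors with STAR on the GRCz10 assembly, with Ensembl 91 annotation without pseudogenes, and they deposited RSEM expected counts and TPM values. The submitters' notes also name STAR 2.5.4a, Trimmomatic 0.36 and HISAT2 2.2.1.0, another STAR version than the study's methods give. Symbols came from a table of gene names, matched without regard to case, for 26982 of 34707 IDs. Expected counts were rounded to whole numbers. The 15 small RNA libraries were not used. No reference sequences were used.

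R 4.3.3 with edgeR 4.0.16 and DESeq2 1.42.0, and Python 3.11.15, were used. The 3 libraries of a mutant and the 3 of its control were fitted by themselves, and the regeneration contrast was fitted to all 33, with filterByExpr, TMM, a quasi-likelihood test and Benjamini-Hochberg adjustment at 0.05 over all genes tested. The fits were tested on simulated data, in which most changes of the smaller size simulated, above nearly all fold changes of these genes, were not called. SE is the absolute log2 fold change over the square root of F, and intervals are 95%. CPM values carry the TMM factors, and each SD is that of 3 libraries. Genes named are those called, the 2 largest rises and falls per mutant, the inducible and catalytic beta genes, *psma8*, the extremes of each class by TPM, and *pomp*, *nfe2l1*, *nfe2l1b* and any list gene called, of which 1 is not reported here; others are named as examples chosen after their values were seen. In the *smn1*, *gemin3* and *gemin5* families the deviations of same-numbered mutants and siblings correlated at 0.27 to 0.72, so those numbers were taken as pairs. This pairing was inferred from these same data. Libraries 1 and 2 were hardly told apart in 2 families. Across these numbers r was 0.23 and 0.15 in *gemin3*, against 0.28 and 0.27 within them. In *gemin5* it was 0.33 and 0.31, against 0.45 and 0.41. No 2 libraries of a group were copies: chi-square divided by its degrees of freedom was at least 10.2. Alternatives were DESeq2, RLE scaling, no filter, the replicate block, all 33 libraries in 1 fit, another control and leaving out libraries.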

Additional observations from a re-analysis of the deposited data

Results flagged for a closer look

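*psme1*, the gene of the PA28 alpha subunit, was the only member whose fold changes differed between the regeneration and the non-regeneration mutants by a test of the difference itself (0.50 on the log2 scale, adjusted p = 0.0424 by edgeR). Its fold changes were 0.49, 0.47 and 0.55 in *smn1*, *gemin3* and *gemin5* mutants and -0.40, 0.15, 0.22 and 0.05 in *gemin2*, *gemin4*, *gemin6* and *gemin7* mutants. The difference was 0.35, with an adjusted p of 0.514, without *gemin2* mutants.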

How the results depend on the processing

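The alternatives for the median over the members and for the summed level were chosen after seeing the data. The count of members called, 0 for each mutant, became 2 (DESeq2) and 1 (all libraries in 1 fit) in *gemin3* mutants, 2 (replicate block) and 1 (all libraries) in *gemin5* mutants, and 1 (DESeq2) and 4 (all libraries) in *gemin2* mutants. These 4 were *psme1* and *psmb3*, lower, and both *psme4* IDs, higher. Without 1 library it was 0 to 2 in *gemin3* and 0 to 1 in *gemin2* mutants. For the contrast of regeneration mutants the count of 1 became 0 without the filter, without *gemin2* mutants, without the *gemin3* family, and without any replicate number (0 to 0). For the wild-type comparison it became 11 by DESeq2 and 3 with the replicate block, and was 0 to 5 without 1 library. There, same-numbered libraries share only a number. The same holds for mutants with the shared wild type, apart from 1 library each of *gemin4*, *gemin6* and *gemin7* mutants, whose same-numbered control came from its own family. Deviations of same-numbered libraries in these comparisons correlated between -0.28 and 0.38. The block left the counts of *gemin2*, *gemin4*, *gemin6* and *gemin7* mutants at 0. The replicate block changed no other count of calls. The single wild-type library of a family gives no test. With it the summed level of *gemin7* mutants was 103% of the control, *psme4*-87911 in *gemin6* mutants 0.96 and in *gemin4* mutants -0.18. RLE scaling changed no call and turned the direction of 4 of the 364 fold changes of the 52 members in the 7 mutants, none above 0.011 in size. The cause of these differences was not tested.

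Leaving out 1 library turned the direction of 139 of the 364 fold changes, none above 0.26 in size: 33 in *smn1*, 32 in *gemin7*, 26 in *gemin2*, 21 in *gemin5*, 11 in *gemin4* and 8 each in *gemin3* and *gemin6* mutants. For the genes named with their values, leaving out a library gave -0.20 to 0.17 for *psme4*-87911 in *smn1*, -0.057 to 0.29 in *gemin5*, -0.077 to 0.54 in *gemin4*, -0.37 to 0.23 in *gemin6* (0.057 with the replicate block) and -0.051 to 0.55 in *gemin7* mutants. It gave -0.047 to 0.23 for *psmb10* in *smn1*, -0.13 to 0.085 in *gemin6* and -0.19 to 0.11 in *gemin7* mutants, and -0.018 to 0.25 in the contrast. It gave -0.30 to 0.19 for *psmd9* in *gemin4*, -0.020 to 0.31 for *psme2* in *gemin7* and -0.10 to 0.090 for *psmd11*-60150 in *smn1* mutants.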
